A study of Mus musculus with 60 samples.

Results

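The complement genes C3, C4b, Cfb, Cfd, C1ra, C1s1, Serping1, Cd55 and Cd59a were followed through an RNA sequencing study of mouse fibroblasts. They were chosen by name, and each matched 1 row in each of the 2 deposited count tables, giving 9 of the 56980 genes listed. Of these 9 genes, 8 passed the filter on low counts and Cfd (ENSMUSG00000061780, chr10:79726687-79728489, GRCm39) had no count in any of the 60 libraries. A count of 0 over a whole table allows Cfd up to 0.00477 CPM in the first and 0.00521 CPM in the second (3 counts, counting error only). Of 8 adipocyte markers other than Cfd, 3 could be tested and 3 to 5 were at 0 in each group.

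Complement is a cascade of secreted proteases and binding proteins that tags surfaces for clearance and can end in a pore in the membrane. In the classical pathway the protease C1r activates C1s (made in the mouse from C1ra and C1s1), C1s cleaves C4 (C4b) and C2, and the products cleave C3, the protein on which all routes converge. The alternative pathway uses factor B (Cfb) and factor D (Cfd), the latter an abundant product of fat cells, while C1 inhibitor (Serping1) blocks C1r and C1s, CD55 takes the C3-cleaving enzymes apart and CD59 stops pore formation on the cell's own membrane. Fibroblasts are a known local source of several of these proteins.

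The study had 20 groups of 3 libraries. The first table followed tail tip fibroblasts from 2 reprogrammable lines at days 0, 2 and 4 of doxycycline (2 µg/ml), which switches on Oct4, Sox2, Klf4 and c-Myc (OSKM), each with and without VC, a mixture of 50 µg/ml ascorbic acid and 3 µM CHIR. The 4F D/KO line (4Fj rtTA Ercc1 d/-, male, 8 weeks) carried a single truncated allele of the DNA repair gene Ercc1, and the 4F WT line (4FJ(+/-) OCT4-GFP, female, 22 weeks) did not. In the second table the D/KO and WT fibroblasts had no doxycycline. D/KO cells (Ercc1(d/-), female, 4 weeks) were left as controls or cultured for 3 days with Repsox or Vactosertib at 0.1 µM or DMH-1 or A83-01 at 1 µM. WT cells (Ercc1 +/+, female, 14 weeks) came from tail tip and from skin, and 3 libraries of the 4F WT line were labelled TGFB, with no doxycycline status given. Repsox, Vactosertib and A83-01 inhibit ALK5, the type I TGFb receptor, and DMH-1 inhibits the BMP receptor ALK2, which Vactosertib is described as inhibiting too. All cells were kept at 3% oxygen to at most passage 3. The sources describe each line by 1 sex and age and do not say how many mice it came from. In the first table genotype, sex, age, reporter and line cannot be told apart. In the second, where D/KO and WT cells were both female, genotype, age and line cannot. Nothing says that the 3 libraries of a group came from separate cultures. P-values therefore measure the spread between libraries, which may be technical.

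Sequencing gave 16538374 to 18484951 counts per library in the first table and 17102639 to 30599138 in the second. Ercc1 was detected in every library, at 8.03 to 18.6 CPM (counts scaled to the effective library size, TMM-normalised) in 4F D/KO and 16.8 to 29.1 CPM in 4F WT, and at 13.2 to 23.5 CPM in the 15 D/KO libraries against 13.3 to 30.2 CPM in the 6 WT libraries, ranges that overlapped in both tables. Fibroblast markers (collagens, Pdgfra, Thy1 and others, 10 genes) were all detected in every group. In one DMH-1 library, replicate 2, the 26 interferon-stimulated genes found of 27 listed summed to 2347 CPM against 278 and 295.1 CPM in the other two. Endothelial markers (Pecam1, Cdh5 and 4 others) summed to 631 to 730 CPM in 4F D/KO cells at day 0 and to 14.7 to 17.3 CPM in 4F WT cells. WT skin replicate 1 and Repsox replicate 2 stood apart from the other libraries of their groups. The variance between libraries was 366 and 278 times the counting noise for pairs with that skin library and 5.94 times for the other pair, and 152 and 163 times against 5.23 for Repsox.

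C1ra and C1s1 lie close together on chromosome 6 and were the most alike pair of the 9 genes over the 36 libraries of the first table. Because they moved together, and because C3 fell while Cd55 rose in the 4F D/KO time course, the 250 bases upstream of the start of these 4 genes are shown (RefSeq, GRCm38.p6, 5′ to 3′ on the gene's strand). This build differs from the GRCm39 build of the count tables. Capitals mark matches, on either strand, to any of 7 short motifs that were searched (NF-kB, C/EBP, STAT, ISRE, TCF/LEF, SMAD and the TATA box).
C1ra, chr6:124512371-124512620, plus strand: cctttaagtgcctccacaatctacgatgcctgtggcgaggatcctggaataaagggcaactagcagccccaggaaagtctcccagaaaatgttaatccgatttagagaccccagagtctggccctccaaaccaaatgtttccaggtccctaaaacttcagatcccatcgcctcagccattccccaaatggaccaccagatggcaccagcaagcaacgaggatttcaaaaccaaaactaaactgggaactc
C1s1, chr6:124542322-124542571, minus strand: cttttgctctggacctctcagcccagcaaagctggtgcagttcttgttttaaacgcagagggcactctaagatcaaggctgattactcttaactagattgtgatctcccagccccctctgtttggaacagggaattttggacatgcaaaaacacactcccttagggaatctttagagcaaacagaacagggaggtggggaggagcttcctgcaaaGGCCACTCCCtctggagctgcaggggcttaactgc
C3, chr17:57228137-57228386, minus strand: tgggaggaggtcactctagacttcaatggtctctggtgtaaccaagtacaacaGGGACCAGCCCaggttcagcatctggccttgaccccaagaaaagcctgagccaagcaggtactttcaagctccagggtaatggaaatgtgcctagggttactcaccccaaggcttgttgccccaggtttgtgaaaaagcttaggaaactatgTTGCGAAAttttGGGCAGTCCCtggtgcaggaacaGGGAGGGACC
Cd55, chr1:130462745-130462994, minus strand: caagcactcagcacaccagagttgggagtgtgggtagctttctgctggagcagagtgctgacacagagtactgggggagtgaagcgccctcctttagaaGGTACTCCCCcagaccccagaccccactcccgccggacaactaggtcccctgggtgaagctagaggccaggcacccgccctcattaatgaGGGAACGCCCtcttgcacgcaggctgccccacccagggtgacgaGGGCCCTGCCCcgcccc
The C1ra window held none of the 7 motifs, and the C1s1 window held 1 NF-kB match. The table lists a second C1s1 start, whose window (chr6:124542360-124542609) overlaps the one shown and held no NF-kB match and 1 C/EBP match. In the C3 window there were 4 NF-kB matches, of which a pair overlapped, and 1 C/EBP match, and the Cd55 window held 4 NF-kB matches, a pair again overlapping. Of the 32851 promoters in the same table, 45.801% held an NF-kB match, spelled as GGG and CC around NNNNN, and 9.564% a C/EBP match, spelled TTGCNNAA, so these letters are common. A STAT match (TTCNNNGAA) was present in 7.02% of those promoters and an ISRE match, GAAA on both sides of NN, in 2.977%. The TCF/LEF motif was searched as TCAAAG and was present in 13.832% of them. The share with a SMAD match, searched as CAGACA, was 17.132%. The TATA box, searched as TATAAA, was found in 12.368%. A promoter sequence was matched for 6 of the 9 genes, and C4b, Cfb and Serping1 were the other 3.

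The gene bodies, as the count tables give them on GRCm39, were C1ra (ENSMUSG00000055172) at chr6:124489364-124500402, C1s1 (ENSMUSG00000038521) at chr6:124507304-124519318, C3 (ENSMUSG00000024164) at chr17:57510970-57535136, C4b (ENSMUSG00000073418) at chr17:34947354-34962856 and Cfb (ENSMUSG00000090231) at chr17:35075350-35081494. The regulators were Serping1 (ENSMUSG00000023224) at chr2:84595731-84605788, Cd55 (ENSMUSG00000026399) at chr1:130366764-130390481 and Cd59a (ENSMUSG00000032679) at chr2:103926146-103945699. Some of these genes have near copies. Of all stretches of 150 bases, the read length, in the transcripts of each gene, 71.817% of those of Cfb also occurred in another gene, mainly the overlapping gene model Gm20547, and 26.271% of those of C1ra occurred in its copy C1rb. The share was 17.254% for Cd55, mostly on the opposite strand, 12.458% for C1s1, 9.016% for C4b, 3.348% for Cd59a, 0.179% for C3 and 0 for Serping1. How the counting treated such reads is not given in the sources used here, so the values of Cfb above all, and of C1ra in part, are uncertain. Over the first table Cfb had 287 counts and Gm20547 had 0. Whether reads shared by both genes went uncounted, which would lower the Cfb level, was not tested.

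Before any treatment, 7 of the 8 genes tested were lower in 4F D/KO than in 4F WT cells at day 0. For a per-length scale, RPKM divides CPM by the gene length in kilobases given with the counts. By this measure Serping1 was the most abundant of the 9 in both lines, at 44.9 ± 11.9 RPKM (SD, n = 3) in 4F D/KO and 178.5 ± 15.7 RPKM in 4F WT. C1ra came next, at 21.4 ± 8.65 and 90.3 ± 6.51 RPKM, and C1s1 was close to it at 13.5 ± 6.17 and 88.9 ± 6.51 RPKM. Below these in 4F D/KO lay Cd59a, Cd55 and C3, at 7.52, 2.63 and 2.24 RPKM. In 4F WT the order was Cd55, C3 and Cd59a, at 15.1, 10.8 and 9.36 RPKM. C4b followed at 0.626 ± 0.277 and 3.12 ± 0.889 RPKM, and Cfb, an uncertain value, at 0.0561 and 0.283 RPKM. Across all genes, 43.2% of the 15832 tested differed between these 2 groups and 21.1% were lower in 4F D/KO (adjusted p under 0.05 by Benjamini-Hochberg in edgeR's quasi-likelihood test, two-sided, the rule for every call here).

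C1s1 differed most, with 58.8, 47.3 and 21.1 CPM in the 3 4F D/KO libraries and 301, 262 and 271 CPM in 4F WT. No library of one line reached the range of the other, and the log2 fold change was -2.72 ± 0.21 (SE, adjusted p = 3.06e-13). Cd55 stood at 12.1, 13.8 and 12.5 CPM against 77.7, 70.8 and 71.0 CPM, a log2 fold change of -2.52 ± 0.14 (adjusted p = 6.02e-17). The changes of C4b (-2.32 ± 0.26), C3 (-2.27 ± 0.22), C1ra (-2.08 ± 0.20) and Serping1 (-1.99 ± 0.16) were of like size, and Cfb, on few counts, was lower by -2.27 ± 0.71 on the log2 scale. The Cfb call was lost without 4F D/KO day 0 replicate 1 (-1.92, adjusted p = 0.0532). Cd59a was the exception at -0.32 ± 0.16 (adjusted p = 0.115). It was called only without 4F D/KO day 0 replicate 2, a library with 18.5 CPM against 12.1 and 10.2 CPM in the other two (-0.60, adjusted p = 0.00354). The median of the 8 genes was -2.27, and in every comparison below the median of all genes tested lay between -0.02 and 0.03. In these bulk cultures fewer cells of a type and less RNA per cell cannot be told apart. Beside this difference, 6 of 6 endothelial markers were higher and 7 of 8 leukocyte markers lower in 4F D/KO (leukocyte sums of 9.79 to 13.3 CPM against 23.9 to 48.1 CPM). Of 25 interferon-stimulated genes 8 were lower and 0 higher (sums of 151 to 210 CPM against 330 to 352 CPM), and of 10 fibroblast markers 5 were higher and 3 lower (sums of 84900 to 124000 CPM against 54800 to 56600 CPM). Of 3 adipocyte markers tested, 2 were higher and 0 lower (sums of 61.7 to 82.5 CPM against 24.6 to 25.4 CPM). The part of these lists in the difference was not tested.

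During reprogramming without VC, the classical proteases and 2 of the membrane and plasma inhibitors rose in 4F D/KO cells. At day 2, 5 of 8 genes were called higher and 0 lower, where 27.4% of all genes were called, and the median log2 fold change was 0.93. At day 4, 5 were higher and 2 lower, where 37% of all genes were called, with a median of 1.97.

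**Figure D1:**
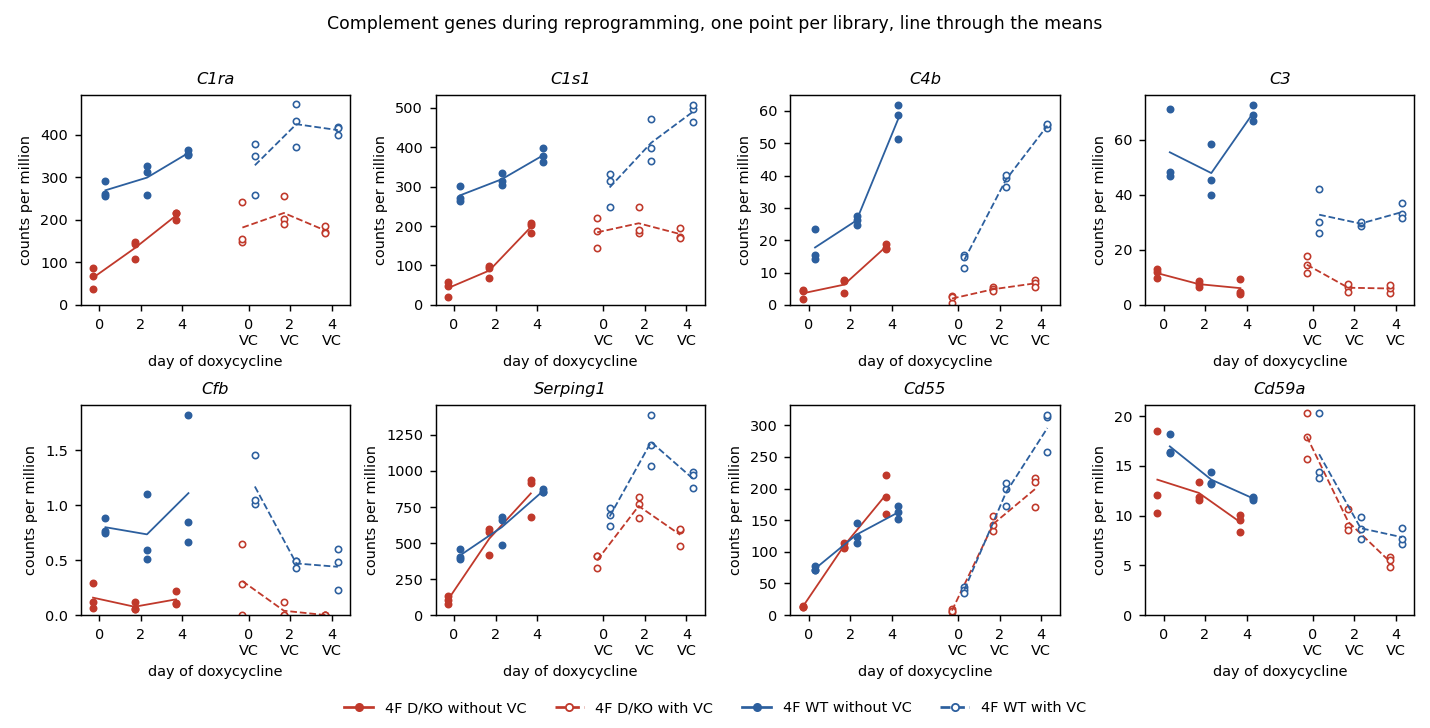
CPM (y axis, from 0, TMM-scaled) of the 8 genes detected, by day of doxycycline with and without VC (x axis), 1 point per library and lines through the means of 3 libraries. 4F D/KO Cd55 climbs from 12.8 CPM at day 0 to 189.5 CPM at day 4, while every 4F D/KO library of C3 lies below every 4F WT library.

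Cd55, whose product disassembles the C3-cleaving enzymes, had the largest rise. Its 3 libraries gave 12.1, 13.8 and 12.5 CPM at day 0, 115, 108 and 106 CPM at day 2, and 187, 160.4 and 221 CPM at day 4. None of the ranges overlapped, and the log2 fold change was 3.10 ± 0.14 at day 2 (8.58-fold, adjusted p = 3.83e-19) and 3.89 ± 0.14 at day 4 (14.8-fold, adjusted p = 5.01e-22). For 4F WT cells, Cd55 rose from 77.7, 70.8 and 71.0 CPM to 151, 173 and 163 CPM at day 4, a log2 fold change of 1.15 ± 0.13 (adjusted p = 5.98e-09). The 2 lines, far apart at day 0, thus had overlapping Cd55 levels at day 4. The rise itself was larger in 4F D/KO, by 2.30 ± 0.18 at day 2 (adjusted p = 5.57e-11) and 2.74 ± 0.19 at day 4 (adjusted p = 2.01e-13) on the log2 scale.

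Serping1, the plasma inhibitor of C1r and C1s, followed the same course. Its libraries read 103, 133 and 77.7 CPM at day 0, 574, 599.9 and 418 CPM at day 2 and 915, 939 and 678 CPM at day 4 in 4F D/KO. The log2 fold changes were 2.34 ± 0.17 (adjusted p = 7.57e-14) and 3.01 ± 0.17 (8.08-fold, adjusted p = 7.20e-17). The 4F WT libraries went from 456, 386 and 403 CPM to 856, 876 and 856 CPM at day 4 (1.06 ± 0.16, adjusted p = 2.94e-06), so the day 4 values of the 2 lines again lay side by side. The rise was larger in 4F D/KO by 1.79 ± 0.22 at day 2 and by 1.96 ± 0.22 at day 4 (adjusted p = 8.25e-07 and 5.47e-08). At day 2 the 4F WT rise of 0.56 ± 0.16 (adjusted p = 0.0162) was lost in 4 of the 6 fits that left out a library, the highest adjusted p being 0.102 without 4F WT day 2 replicate 2, with the others without day 0 replicates 2 and 3 (0.0709 and 0.069) and day 2 replicate 1 (0.0543).

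C1ra rose from 67.4, 87.6 and 36.4 CPM at day 0 to 147, 144 and 108 CPM at day 2 and 216, 198 and 215 CPM at day 4 in 4F D/KO. C1s1 went from 58.8, 47.3 and 21.1 CPM to 98.1, 94.8 and 68.6 CPM and then 207, 182 and 202 CPM. Each day's libraries lay above those of the day before for both proteases. At day 2 the changes were nearly equal, 1.06 ± 0.19 for C1ra and 1.04 ± 0.20 for C1s1, and at day 4 they were 1.72 ± 0.19 and 2.22 ± 0.20 (adjusted p = 3.22e-09 and 2.27e-11). C1ra and C1s1 in 4F WT cells gave 0.41 ± 0.19 and 0.45 ± 0.19 at day 4, which missed the threshold (adjusted p = 0.107 and 0.0807), although a fit of these 2 groups alone called both (adjusted p = 1.23e-06 and 4.38e-07). The difference between the lines at day 4 was 1.31 ± 0.27 for C1ra and 1.77 ± 0.27 for C1s1 (adjusted p = 0.000529 and 1.29e-05). At day 4 the highest 4F D/KO library of either gene still lay below the lowest 4F WT library at day 0. For C1ra the difference at day 2 (0.91 ± 0.27, adjusted p = 0.0315) was lost in 5 fits that left out 1 library, namely 4F D/KO day 0 replicate 3 (0.63, adjusted p = 0.0991), 4F D/KO day 2 replicates 1 and 2 (adjusted p = 0.0882 and 0.0785), 4F WT day 0 replicate 1 (adjusted p = 0.0797) and 4F WT day 2 replicate 3 (adjusted p = 0.0981), and in a fit of only the 4 groups compared (adjusted p = 0.0854).

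C4b, the substrate of C1s, read 4.70, 4.22 and 1.77 CPM at day 0 and 17.7, 18.7 and 17.2 CPM at day 4 in 4F D/KO, a log2 fold change of 2.33 ± 0.26 (adjusted p = 2.96e-09). At day 2 its value was 0.81 ± 0.28 (adjusted p = 0.025), a call lost without 4F D/KO day 0 replicate 3 (0.48, adjusted p = 0.213) without day 2 replicate 1 or 2 (adjusted p = 0.12 and 0.151) and in a fit of the 2 groups alone (adjusted p = 0.126). C4b in 4F WT cells rose from 23.6, 14.3 and 15.4 CPM to 51.4, 58.8 and 61.8 CPM at day 4 (1.69 ± 0.22, adjusted p = 2.76e-07). Both lines therefore raised C4b, and the difference of 0.64 ± 0.34 at day 4 was not called (95% interval -0.03 to 1.31).

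C3, the central component, did not follow its upstream partners in 4F D/KO. It fell from 11.9, 13.0 and 9.78 CPM at day 0 to 4.01, 4.80 and 9.44 CPM at day 4, with 1 day 4 library close to the day 0 range, and the log2 fold change was -0.92 ± 0.24 (adjusted p = 0.00217). At day 2 the value was -0.61 ± 0.24 (adjusted p = 0.0512), and DESeq2 called it (adjusted p = 0.0265). In 4F WT cells C3 had 71.1, 47.0 and 48.4 CPM at day 0 and 69.1, 72.9 and 66.9 CPM at day 4, which overlapped and gave no call. The change differed between the lines by -1.25 ± 0.31 at day 4 (adjusted p = 0.00506).

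Cd59a, which guards the membrane against the terminal pore, moved the other way from Cd55. In 4F D/KO it had 12.1, 18.5 and 10.2 CPM at day 0 and 9.55, 8.36 and 10.1 CPM at day 4, a log2 fold change of -0.55 ± 0.17 (adjusted p = 0.00885). The call was lost without the highest library, 4F D/KO day 0 replicate 2 (-0.26, adjusted p = 0.241), without day 4 replicate 2 (-0.47, adjusted p = 0.0515) and in a fit of the 2 groups alone (adjusted p = 0.102). The 4F WT libraries went from 16.4, 18.2 and 16.3 to 11.6, 11.8 and 11.9 CPM without overlap, with a log2 fold change of -0.53 ± 0.16 (adjusted p = 0.015), a call lost without day 0 replicate 2 (adjusted p = 0.0748) or day 4 replicate 1 (adjusted p = 0.0524).

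Counted over the genes, 4F WT cells without VC had 2 of 8 called higher and 0 lower at day 2 (10.6% of all genes called, median 0.17) and 3 higher and 1 lower at day 4 (24.5% of all genes called, median 0.46). The difference between the lines was called for 3 genes at day 2 (6.54% of all genes), all with the larger rise in 4F D/KO, and for 5 genes at day 4 (14.3% of all genes), with C3 alone in the other direction.

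**Figure D2:**
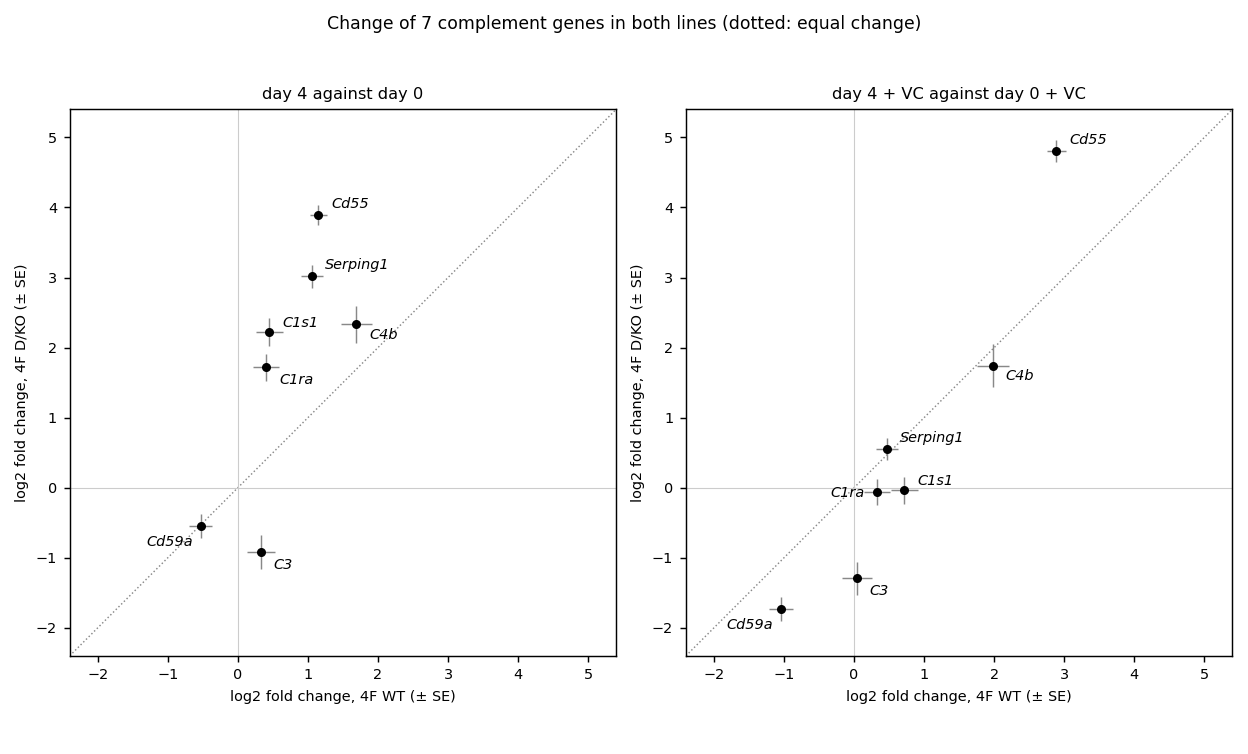
Log2 fold change from day 0 to day 4 in 4F WT (x axis) and 4F D/KO (y axis) for 7 genes, with bars of 1 SE, without VC on the left and with VC on the right, and a dotted line of equal change. Without VC, Cd55, Serping1, C1s1, C1ra and C4b lie above the line and C3 below it, the difference of C4b not being called, whereas with VC Cd55 alone lies clearly above it. Cfb was left out because its counts were few, with none in several libraries.

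VC alone, at day 0, raised the same proteases in 4F D/KO before any OSKM. C1ra stood at 242, 148 and 155 CPM with VC (log2 fold change 1.51 ± 0.19, adjusted p = 1.18e-07), and C1s1 at 220.3, 144 and 188 CPM (2.12 ± 0.20, adjusted p = 2.12e-10). Serping1 reached 410.1, 407 and 325 CPM (1.87 ± 0.16, adjusted p = 2.56e-11). All 3 genes were above their day 0 range in every library. Cd55 went the opposite way, to 8.86, 5.42 and 6.94 CPM (-0.84 ± 0.16, adjusted p = 6.14e-05), so that the 2 inhibitors parted under VC. In 4F WT cells Serping1 rose by 0.72 ± 0.16 (adjusted p = 0.000532) and Cd55 fell by 0.87 on the log2 scale (SE 0.13, adjusted p = 1.81e-06). C3 fell there by 0.76 (SE 0.21, adjusted p = 0.00502), a call lost without 4F WT day 0 replicate 1 (adjusted p = 0.0704), the library with 71.1 CPM, or without day 0 + VC replicate 3 (adjusted p = 0.0504). In 4F D/KO with VC at day 0, 6 of 6 endothelial markers were lower (224 to 265 CPM against 631 to 730 CPM). Of 10 fibroblast markers 6 were higher and 2 lower (sums of 186000 to 256000 CPM against 84900 to 124000 CPM). Adipocyte markers had 2 of 3 lower and 0 higher with VC alone in each line. The part of these markers was not tested. VC alone gave 3 genes higher and 1 lower in 4F D/KO (26.1% of all genes called, median 0.68) and 1 higher and 2 lower in 4F WT (29.4% of all genes called, median 0.02). In 4F WT cells with VC at day 0, 24 of 25 interferon-stimulated genes tested were also higher, with sums of 626 to 1510 CPM against 330 to 352 CPM without it, as were 6 of 10 fibroblast markers (sums of 158000 to 174000 CPM against 54800 to 56600 CPM), and their part in these values was not tested.

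With VC throughout, Cd55 rose in 4F D/KO and the proteases were not called. Against day 0 + VC, 3 genes were higher and 3 lower at day 2 (47.4% of all genes called, median 0.21) and again at day 4 (54.1% of all genes called, median -0.05). The lower genes at each day included Cfb, which rests on few counts. Cd55 went from 8.86, 5.42 and 6.94 CPM to 216, 171 and 210.2 CPM at day 4, a log2 fold change of 4.80 ± 0.15 (27.9-fold, adjusted p = 4.20e-24), the largest rise of any of the genes in any comparison within a line. It started from a lower day 0 level than without VC, and its day 4 levels with and without VC overlapped (171 to 216 and 160.4 to 221 CPM). The rises with and without VC were not compared by a test. C1ra and C1s1 changed by -0.06 ± 0.19 and -0.04 ± 0.19 from day 0 + VC to day 4 + VC (adjusted p = 0.821 and 0.894). Their levels at day 4 + VC, 168 to 184 CPM and 171 to 196 CPM, were nevertheless far above those at day 0 without VC, and against that baseline the values were 1.45 and 2.09 (adjusted p = 5.94e-08 and 5.48e-11). The rise of these proteases in the VC series was thus present at day 0 + VC.

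C3 was lower by 1.30 on the log2 scale at day 4 + VC in 4F D/KO (-1.30 ± 0.24, adjusted p = 1.98e-05), with 14.6, 11.6 and 17.7 CPM at day 0 + VC and 4.44, 6.24 and 7.21 CPM at day 4 + VC. C4b rose by 1.74 ± 0.31 (adjusted p = 8.94e-06), though to 7.82, 6.74 and 5.42 CPM, below the 17.2 to 18.7 CPM of day 4 without VC. Serping1 gained 0.55 ± 0.16 (adjusted p = 0.00333), and among the 4F D/KO groups with VC its mean was highest at day 2 + VC, at 756.9 ± 73.6 CPM. Cd59a fell by 1.73 on the log2 scale (SE 0.17, adjusted p = 1.20e-10) to 5.81, 4.84 and 5.53 CPM, the lowest mean of the 12 groups. Cfb had 10, 0 and 4 counts in the 3 libraries at day 0 + VC and no count in any library at day 4 + VC, too few for a fold change. The call of Cfb at day 2 + VC (-2.83 ± 0.99, adjusted p = 0.0186) was lost without 4F D/KO day 0 + VC replicate 1 (-1.73, adjusted p = 0.255) and without day 2 + VC replicate 1 or 3 (adjusted p = 0.0799 and 0.0826).

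In 4F WT cells with VC, 3 genes were higher and 1 lower at day 2 (27.5% of all genes called, median 0.42) and 4 higher and 1 lower at day 4 (44.7% of all genes called, median 0.40). Cd55 rose from 44.4, 40.0 and 35.6 CPM to 258, 313 and 316 CPM (2.89 ± 0.13, adjusted p = 3.87e-19), and C4b from 15.5, 14.9 and 11.5 CPM to 55.6, 54.7 and 56.0 CPM (1.99 ± 0.23, adjusted p = 5.57e-09). These were the highest Cd55 levels measured. C1s1 rose by 0.72 ± 0.19 (adjusted p = 0.00239). Serping1 rose by 0.47 ± 0.16 (adjusted p = 0.0134), a call lost without 4F WT day 0 + VC replicate 3 (adjusted p = 0.0715). Cd59a fell by 1.05 on the log2 scale (SE 0.17, adjusted p = 3.96e-06). Over the same steps 19 and 22 of 25 interferon-stimulated genes were lower in 4F WT, with sums of 299 to 676 CPM at day 2 + VC and 252 to 321 CPM at day 4 + VC, and their part was not tested.

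The difference between the lines in the VC series was called for 2 genes at day 2 (13.9% of all genes) and for 5 at day 4 (29.4% of all genes). For Cd55 the rise was larger in 4F D/KO by 2.07 ± 0.19 at day 2 and by 1.92 ± 0.19 at day 4 (adjusted p = 1.18e-09 and 1.54e-09). The C3 change was lower in 4F D/KO by 1.08 at day 2 (-1.08 ± 0.32, adjusted p = 0.0183) and by 1.34 at day 4 (-1.34 ± 0.32, adjusted p = 0.00145). The day 2 call was lost without 4F D/KO day 0 + VC replicate 3, 4F D/KO day 2 + VC replicate 2 or 4F WT day 0 + VC replicate 3 (adjusted p = 0.0652, 0.0746 and 0.0617). C1s1 (-0.75 ± 0.27, adjusted p = 0.0327), Cd59a (-0.69 ± 0.24, adjusted p = 0.0288) and Cfb (adjusted p = 0.0423) made up the rest at day 4. The C1s1 call was lost without 4F D/KO day 0 + VC replicate 1 or 3, 4F D/KO day 4 + VC replicate 2 or 3, 4F WT day 0 + VC replicate 3 or 4F WT day 4 + VC replicate 2 or 3 (adjusted p from 0.0539 to 0.118). The Cd59a call was lost without 4F D/KO day 0 + VC replicate 1, 4F D/KO day 4 + VC replicate 2, 4F WT day 0 + VC replicate 2 or 3 or 4F WT day 4 + VC replicate 3 (adjusted p from 0.0702 to 0.0894), and the Cfb call in 9 of 12 such fits, up to an adjusted p of 0.159 without 4F D/KO day 0 + VC replicate 1. With day 0 without VC as the baseline, the C1s1 difference turned to 1.27 (adjusted p = 0.000648) and the C3 differences were 0.02 and -0.23, neither called. For Serping1 the difference was 0.18 ± 0.22 at day 2 and 0.08 ± 0.22 at day 4, and neither was called. Against day 0 without VC both Serping1 differences were called (1.32 and 1.22, adjusted p = 3.52e-05 and 8.04e-05), and the Cd59a difference at day 4 was not (-0.22, adjusted p = 0.582). The C4b difference at day 4 was -0.24 ± 0.39 (95% interval -1.01 to 0.53). The change of 6 interferon-stimulated genes of 25 at day 2 and 22 of 25 at day 4 was higher in 4F D/KO than in 4F WT, and their part in these differences was not tested.

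Most epithelial markers rose with reprogramming in 4F D/KO. Their sum reached 75.1 to 90.0 CPM at day 4, against 4.81 to 6.95 CPM at day 0 (6 of 7 tested called higher). At day 4 + VC the sum was 589 to 686 CPM, against 5.54 to 9.84 CPM at day 0 + VC (5 of 7 called higher). Fibroblast markers fell over the same steps (7 of 10 and 8 of 10 called lower), and endothelial markers had 1 of 6 higher and 5 lower at day 4 and 2 higher and 3 lower at day 4 + VC, where their sum was 383 to 515 CPM against 224 to 265 CPM at day 0 + VC. In 4F WT 2 of 7 epithelial markers were called higher at day 2, 3 of 7 at day 4 and 5 of 7 at day 4 + VC, and the sum was 40.6 to 45.6 CPM at day 4 against 18.4 to 24.6 CPM at day 0. The 4F WT endothelial sum was 14.7 to 17.3 CPM at day 0 and 95.3 to 95.7 CPM at day 4, with 1 of 6 markers called higher, and 5 of 10 fibroblast markers were lower and 2 higher at day 4 + VC. Adipocyte markers had 1 of 3 higher and 2 lower in 4F D/KO at day 4 and again at day 4 + VC. In 4F WT they had 0 higher and 1 lower at day 4 and 0 higher and 2 lower at day 4 + VC. The part of these shifts in the complement values was not tested. The acute phase list, which holds genes that liver and other cells raise in inflammation, had 3 of 13 higher and 6 lower at day 4 in 4F D/KO (37% of all genes called) and 2 higher and 8 lower at day 4 + VC (54.1%). In 4F WT it had 4 higher and 2 lower at day 4 (24.5%) and 3 higher and 5 lower at day 4 + VC (44.7%). With Repsox, Vactosertib, A83-01 and DMH-1, 6, 4, 4 and 1 of 13 were lower and 1, 1, 2 and 1 higher. In the same order, 25.2%, 22.1%, 32.6% and 9.75% of all genes were called.

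In the second experiment, D/KO fibroblasts raised the classical pathway genes with each of the 3 TGFb receptor inhibitors. All inhibitor groups were compared with the same 3 control libraries. Repsox gave 6 of 8 genes higher (25.2% of all genes called, 13.4% higher, median 1.26), Vactosertib 7 (22.1% called, 11.8% higher, median 1.32) and A83-01 7 (32.6% called, 16.4% higher, median 2.15). DMH-1 gave 5 (9.75% called, 5.96% higher, median 0.74). No gene was called lower with any of them.

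**Figure D3:**
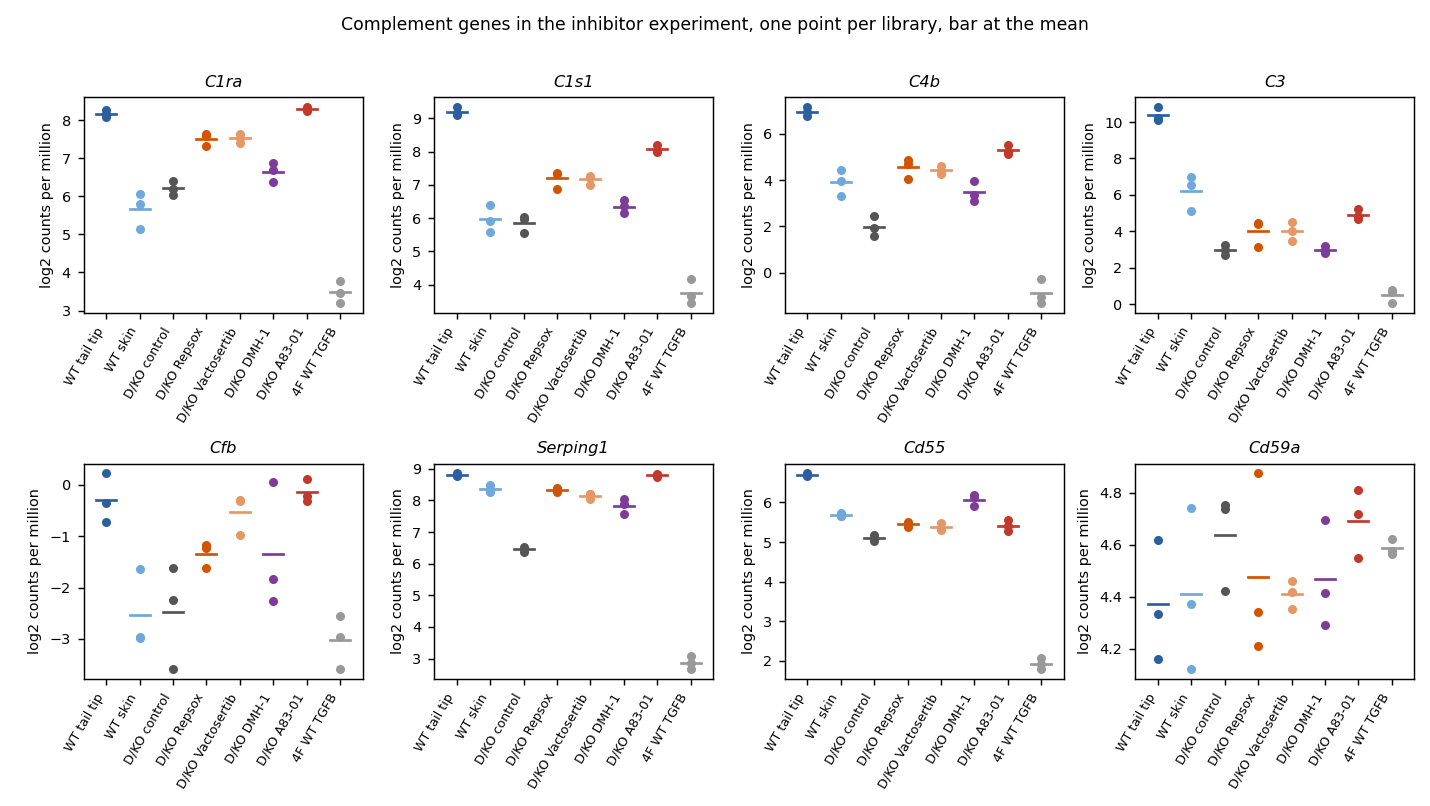
Log2 CPM (y axis, 1 panel per gene) in the 3 libraries of each group of the second table (x axis), with a bar at the mean. Apart from the libraries labelled TGFB and some skin libraries, D/KO controls have the lowest means for C1ra, C1s1, C4b and Serping1, with 1 DMH-1 library within their C1ra range, A83-01 libraries are highest among the D/KO groups for these genes, and C3 in WT tail tip cells, at 1102 to 1803 CPM on the linear scale, is far above all other groups.

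Among the genes called, C4b had the largest change with every inhibitor. It read 2.89, 3.75 and 5.43 CPM in controls, 29.5, 16.6 and 25.8 CPM with Repsox, 19.3, 24 and 20.9 CPM with Vactosertib, 37.6, 45.1 and 35.4 CPM with A83-01 and 8.49, 15.7 and 10.2 CPM with DMH-1. Every treated library was above every control. The log2 fold changes were 2.59 ± 0.26, 2.43 ± 0.27, 3.30 ± 0.27 (9.87-fold) and 1.53 ± 0.26, with adjusted p-values of 1.54e-06, 3.90e-06, 6.50e-08 and 0.00117 in the same order.

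C1ra had 65.5, 73.7 and 84.9 CPM in controls and 325, 320.0 and 303 CPM with A83-01 (2.08 ± 0.13, adjusted p = 2.70e-09). C1s1 had 46.5, 65.0 and 63.4 CPM and 256, 293 and 262 CPM (2.21 ± 0.15, adjusted p = 1.05e-08). With Repsox and Vactosertib the pair changed by 1.29 to 1.35 on the log2 scale, again nearly equally. With DMH-1 the values were 0.45 ± 0.13 for C1ra and 0.49 ± 0.15 for C1s1 (adjusted p = 0.0323 and 0.0473), and leaving out any of 4 libraries ended the C1ra call and any of 5 the C1s1 call. Without D/KO DMH-1 replicate 3 these were 0.32 and 0.39 (adjusted p = 0.148 and 0.174). Without D/KO control replicate 1 they were 0.36 and 0.35 (adjusted p = 0.147 and 0.204) and without control replicate 2 the adjusted p-values were 0.107 and 0.061. The remaining losses were DMH-1 replicate 2, the interferon-high library, for C1ra (0.44, adjusted p = 0.0936) and control replicate 3 and DMH-1 replicate 1 for C1s1 (adjusted p = 0.0664 and 0.123).

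Serping1 rose from 82.5, 88.9 and 91.4 CPM in controls to 306, 318 and 339 CPM with Repsox, 266, 292 and 296 CPM with Vactosertib, 456, 450.2 and 428 CPM with A83-01 and 190, 265 and 238 CPM with DMH-1. The log2 fold changes were 1.87 ± 0.11, 1.71 ± 0.10, 2.34 ± 0.11 and 1.40 ± 0.10. All were called, the highest adjusted p being 1.94e-07 with DMH-1.

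C3 rose with the TGFb receptor inhibitors and not with DMH-1. Controls read 6.51, 9.36 and 7.67 CPM, A83-01 libraries 25.0, 37.0 and 28.3 CPM (1.94 ± 0.33, adjusted p = 0.000191) and DMH-1 libraries 7.71, 6.89 and 9.01 CPM, within the control range. Repsox gave 22.2, 8.60 and 21.0 CPM (1.14 ± 0.33, adjusted p = 0.0161) and Vactosertib 16.3, 22.6 and 10.8 CPM (1.09 ± 0.33, adjusted p = 0.0234). One Repsox library, replicate 2, overlapped the controls, and without it the Repsox value was 1.46 (adjusted p = 0.000564). The Repsox call was lost without D/KO control replicate 1 or 3 or Repsox replicate 1 or 3 (adjusted p = 0.0699, 0.0513, 0.0691 and 0.0608), and the Vactosertib call without control replicate 1 or 3 or Vactosertib replicate 1 or 2 (adjusted p = 0.0934, 0.0674, 0.0532 and 0.124).

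Cd55 responded in another order. It rose most with DMH-1, from 34.0, 35.8 and 32.3 CPM in controls to 59.7, 70.3 and 72.1 CPM (0.99 ± 0.09, adjusted p = 2.91e-06), and by 0.36 ± 0.09 with Repsox, 0.32 ± 0.09 with A83-01 and 0.30 ± 0.09 with Vactosertib (adjusted p = 0.00866, 0.0138 and 0.0306). The Vactosertib call was lost without D/KO control replicate 1 or 3 or Vactosertib replicate 2 or 3 (adjusted p = 0.0811, 0.113, 0.0581 and 0.133), and the A83-01 call without control replicate 3 or A83-01 replicate 2 (adjusted p = 0.0606 and 0.0788). Cfb was called with A83-01 (2.64 ± 0.74, adjusted p = 0.0111), at 0.725 to 1.00 CPM against 0 to 0.244 CPM in controls, and with Vactosertib (2.24 ± 0.77, adjusted p = 0.046), where leaving out any single library except control replicate 2 ended the call. Cd59a stayed between 18.4 and 29.3 CPM in all 15 D/KO libraries, its groups overlapped, and it was not called with any inhibitor.

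**Figure D4:**
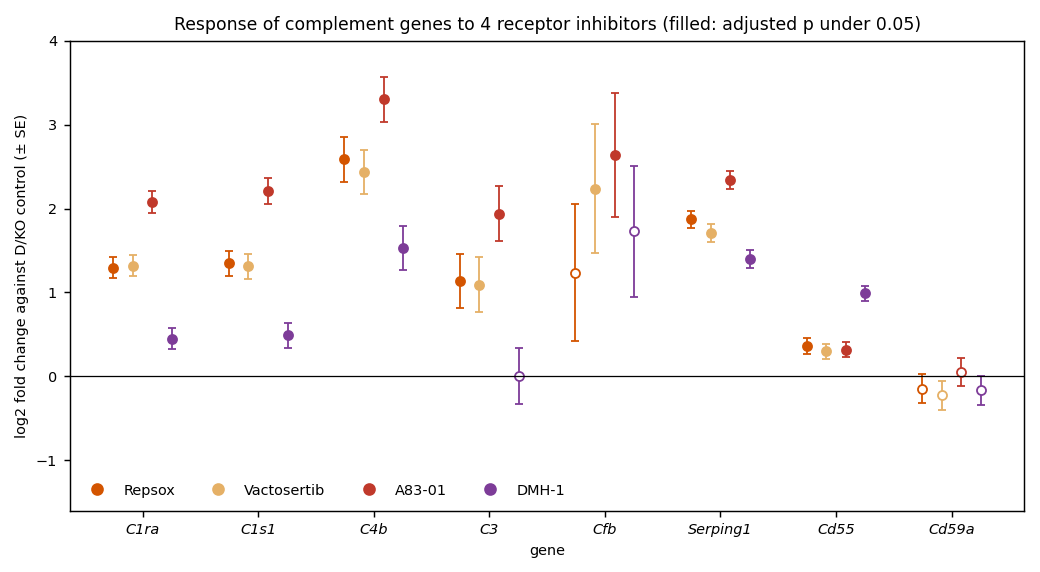
Log2 fold change against D/KO controls (y axis, bars of 1 SE) of the 8 genes (x axis) with each inhibitor, filled where called. C4b reaches 3.30 with A83-01, Cd55 is the only gene whose highest point is DMH-1, and Cd59a lies near 0 with all 4 compounds.

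In all, 2 pairs of compounds were compared at a matched dose and time. At 1 µM, A83-01 exceeded DMH-1 for C3 (1.94 ± 0.32, adjusted p = 0.000249), C4b (1.77 ± 0.24, adjusted p = 3.40e-05), C1s1 (1.72 ± 0.15, adjusted p = 2.37e-07), C1ra (1.63 ± 0.13, adjusted p = 6.96e-08) and Serping1 (0.94 ± 0.10, adjusted p = 2.98e-06). For Cd55 the order was the opposite (-0.67 ± 0.09, adjusted p = 3.90e-05). Thus 6 of 8 genes were called in this pair, against 25.4% of all genes. At 0.1 µM, Repsox and Vactosertib gave no call for any of the 8 genes and 0% of all genes, although 452 of the 15164 genes had an unadjusted p under 0.05, none of them among the 8, and DESeq2 called 8 genes in all. The 95% intervals of the difference on the log2 scale were narrow for C1ra (-0.27 to 0.22), C1s1 (-0.25 to 0.32), Serping1 (-0.04 to 0.36) and Cd55 (-0.12 to 0.25) and wider for Cd59a (-0.25 to 0.42), C4b (-0.31 to 0.61) and C3 (-0.56 to 0.65). For Cfb the interval ran from -2.27 to 0.26. Leaving out single libraries turned the sign of the difference for 5 of the 8 genes. Doses differed between the pairs, so A83-01 was not set against Repsox or Vactosertib.

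Interferon-stimulated genes were higher with DMH-1 (21 of 22 tested), where 5.96% of all genes were higher. With Repsox, Vactosertib and A83-01 3, 3 and 5 of 22 were higher, where 13.4%, 11.8% and 16.4% of all genes were. In either direction 9.75% of all genes were called with DMH-1 and 25.2%, 22.1% and 32.6% with Repsox, Vactosertib and A83-01. Without DMH-1 replicate 2, where interferon-stimulated genes were highest, C4b, Serping1, Cd55 and C1s1 were still called and C1ra was not (0.44, adjusted p = 0.0936). Fibroblast markers were lower with Repsox, Vactosertib and A83-01 (5, 5 and 6 of 10). Leukocyte markers had 1 of 5 higher with each of these 3 and 0 with DMH-1, and endothelial markers 4 of 6 lower and 1 higher with A83-01, with 2, 1 and 2 higher and 0 lower with Repsox, Vactosertib and DMH-1. Epithelial markers had 2 of 3 higher with each of the 3 TGFb receptor inhibitors, summing to 7.17 to 14.8 CPM against 2.81 to 3.78 CPM in controls. Adipocyte markers had 2 of 3 higher with each of the 3 and 1 of 3 with DMH-1, and 1 lower with A83-01. The part of these shifts was not tested.

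Control D/KO cells had lower levels than WT tail tip cells for the same 7 of 8 genes as in the first table, with the caution that the donors differed in age (40.2% of all genes called, 18.9% lower, median -2.42). The C3 gap was the widest, 6.51 to 9.36 CPM against 1173, 1803 and 1102 CPM, a log2 fold change of -7.43 ± 0.40 (adjusted p = 2.25e-10). C4b differed by -4.96 ± 0.28 and C1s1 by -3.33 ± 0.16. C1ra, Serping1 and Cd55 differed by -1.94 ± 0.13, -2.33 ± 0.11 and -1.59 ± 0.09. Cd59a gave 0.28 ± 0.17 (adjusted p = 0.207). None of the inhibitors brought C3 or C1s1 to the WT tail tip range, whereas with A83-01 Serping1, at 428 to 456 CPM, overlapped the 433 to 462 CPM of WT tail tip cells, and C1ra, at 303 to 325 CPM, overlapped their 274 to 307 CPM. Endothelial markers were higher in D/KO controls (5 of 6, 310 to 344 CPM against 75.0 to 92.2 CPM), and their part was not tested.

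The tail tip level was not shared by skin cells of the same genotype, sex and age, compared with the same 3 tail tip libraries. WT skin controls were lower for 7 of 8 genes (34.2% of all genes called, 16.1% lower, median -2.68), with C3 at 33.9, 127 and 93.8 CPM (-4.0 ± 0.41, adjusted p = 1.74e-07), C1s1 at 48.2, 84.9 and 59.8 CPM (-3.20 ± 0.21) and C1ra at 35.0, 67.1 and 55.3 CPM (-2.46 ± 0.19). Both proteases in WT skin cells overlapped the range of D/KO controls. Of the 7 genes called, Serping1 differed least, at 305 to 362 CPM against 433 to 462 CPM (-0.43 ± 0.11, adjusted p = 0.00526), a call lost in a fit of these 2 groups alone (adjusted p = 0.11). C4b (-2.99 ± 0.29), Cfb (-2.90 ± 0.80) and Cd55 (-1.01 ± 0.10) were also lower, and Cd59a overlapped. Without WT skin replicate 1, which stood apart, the same 7 genes were called, with C3 at -3.62, C4b at -2.75, C1s1 at -3.03 and C1ra at -2.24. Endothelial markers were higher in skin than in tail tip (5 of 6, 182 to 248 CPM against 75.0 to 92.2 CPM), and their part was not tested.

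The 4F WT libraries labelled TGFB had no control of their own and were not tested. They held the lowest values of the second table for C3 (0.965 to 1.60 CPM), C4b (0.323 to 0.733 CPM), C1ra (9.12 to 13.7 CPM), C1s1 (10.9 to 17.9 CPM), Serping1 (6.28 to 8.29 CPM) and Cd55 (3.39 to 4.10 CPM), with none of these ranges reaching any other group. Cd59a, at 23.6 to 24.6 CPM, was within the range of the other groups. In these libraries epithelial markers summed to 131 to 135 CPM, against 2.81 to 14.8 CPM in the other groups of the table, endothelial markers to 1.20 to 1.88 CPM, and Ercc1 stood at 42.3 to 47.7 CPM. The part of these in the complement values was not tested.

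**Figure D5:**
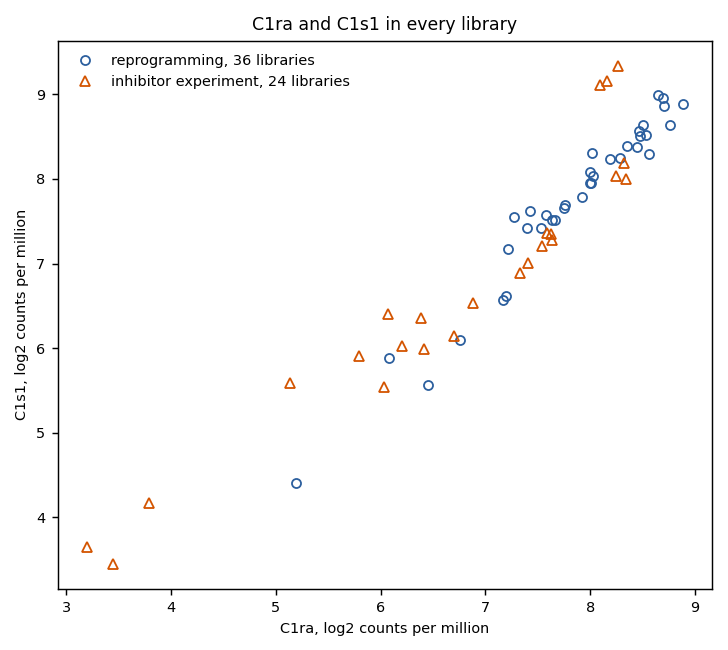
C1s1 (y axis) against C1ra (x axis), both as log2 CPM, 1 point for each of the 36 libraries of the first and the 24 of the second table. The points lie close to a line over the whole range in both tables, with the WT tail tip libraries above it.

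Across libraries the 2 proteases followed each other, with Pearson's r of 0.978 over the 36 libraries of the first table and 0.95 over the 24 of the second, given as a description since libraries share group and line. Cd55 and Cd59a had an r of -0.653 over the 36 libraries and -0.243 over the 24. The genes most like each member over these 36 libraries, by r of log2 CPM, were C1s1 (0.978), Sgsm2 (0.917) and Gm32618 (0.908) for C1ra, and C1ra, Ift80 (0.893) and Gm32618 (0.892) for C1s1. Serping1 was most like Zfp36 (0.918), Pdgfrl (0.906) and Apod (0.891), and Cd55 most like Abca6 (0.967), Pi16 (0.954) and Scara5 (0.951). For C4b these were Plscr4 (0.936), Smarca2 (0.906) and C1qtnf7 (0.893). C3 was most like Fndc3a (0.947), Cdc42bpg (0.94) and 9930105H17Rik (0.94), Cd59a most like Calu (0.918), Ephb2 (0.904) and Cxcl15 (0.90), and Cfb, on few counts, most like Zfp286 (0.899), Shfl (0.898) and Casp4 (0.894).

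Of 47 other complement genes, 27 to 29 could be tested. At day 4 in 4F D/KO 9 of 28 were higher and 3 lower, with a median of -0.17 (37% of all genes called), and at day 4 in 4F WT 4 were higher and 3 lower (24.5% of all genes called). With VC at day 4 these counts were 5 and 6 in 4F D/KO and 8 and 5 in 4F WT, where 54.1% and 44.7% of all genes were called. Clu, clusterin, which binds the terminal complex, rose by 3.18 on the log2 scale at day 4 + VC in 4F D/KO (6.02 to 7.45 CPM at day 0 + VC, 57.5 to 66.3 CPM at day 4 + VC), with a difference from 4F WT of 3.03 (adjusted p = 2.92e-13).

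C2, which C1s cleaves together with C4, rose with VC alone in both lines, from 1.03 to 1.52 CPM to 9.51 to 14.0 CPM in 4F D/KO (3.14, adjusted p = 4.67e-10) and by 2.65 in 4F WT (adjusted p = 8.75e-10). It fell again at day 4 + VC (-2.08 and -2.71). Among the other complement genes Repsox, Vactosertib and A83-01 gave 8, 9 and 11 of 27 higher and 2 lower each, and DMH-1 gave 1 higher and 1 lower, beside the 25.2%, 22.1%, 32.6% and 9.75% of all genes called in these comparisons. C2 was the gene raised with DMH-1 (1.80, adjusted p = 0.000685) and also rose with A83-01 (1.86, adjusted p = 9.51e-05), Repsox (1.76) and Vactosertib (1.47). The following genes were chosen for naming after their values were seen. C1s2, a copy of C1s1, rose by 2.35 and C1rb, the copy of C1ra, by 2.23 with A83-01. Masp1, a lectin pathway protease, went the other way from the classical proteases with A83-01, falling by 1.15 on the log2 scale (439 ± 48.6 to 198 ± 21.5 CPM). The same held at day 4 in 4F D/KO, where Masp1 fell by 0.97. At day 4 in 4F WT Masp1 fell by 1.41, and there C1ra and C1s1 were not called.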

How the data were processed

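The authors trimmed polyA-selected paired-end reads with Trim Galore, aligned them to GRCm39 with HISAT2 and deposited raw featureCounts read counts per gene. Versions, annotation release, strandedness and the handling of multi-mapping reads are not given in the sources used here. Gene symbols were matched by identifier for 56236 of 56980 rows (98.694%).

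Counts were scaled by TMM and tested with edgeR 4.0.16 (R 4.3.3, limma 3.58.1), two-sided quasi-likelihood F-test, after filterByExpr (minimum count 10, minimum total 15), with a prior count of 2 and Benjamini-Hochberg adjustment within each of 23 contrasts. One fit held the 36 libraries of the first table (15832 genes), one the 18 libraries of the second table that the study describes (15164 genes), and skin against tail tip used all 24 (15652 genes), and SE is the absolute log2 fold change over the square root of F. The fits were also run on counts simulated with known changes, with an outcome that is not reported here. DESeq2 1.42.0, other filters, scalings, baselines and library sets were alternatives. No pair of replicates was alike enough to be one library. Floors cover counting error only, and 95% intervals of a difference come from the SE, which includes the spread between libraries.

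The genes and lists were chosen with earlier results of these data known. All 9 genes are named. Of 47 other complement genes, up to 4 called genes with the largest change per contrast were named, and any others are marked. Some results of this list are not reported here. Context lists covered fibroblast, leukocyte, adipocyte, epithelial, endothelial, interferon-stimulated and acute phase genes.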

Additional observations from a re-analysis of the deposited data

Results flagged for a closer look

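Each of the following complement genes changed differently in 4F D/KO and 4F WT cells by a test of the difference itself (edgeR's interaction term, log2 scale, 4F D/KO minus 4F WT, each line against its own day 0). At day 2 without VC the difference was 0.91 for C1ra, 1.79 for Serping1 and 2.30 for Cd55 (adjusted p = 0.0315, 8.25e-07 and 5.57e-11). The C1ra call was lost in 5 fits that left out 1 library.

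At day 4 without VC it was 1.31 for C1ra, 1.77 for C1s1, 1.96 for Serping1 and 2.74 for Cd55, and -1.25 for C3 (adjusted p = 0.000529, 1.29e-05, 5.47e-08, 2.01e-13 and 0.00506).

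With VC it was -1.08 for C3 and 2.07 for Cd55 at day 2 (adjusted p = 0.0183 and 1.18e-09). At day 4 with VC it was -1.34 for C3, -0.75 for C1s1, 1.92 for Cd55 and -0.69 for Cd59a (adjusted p = 0.00145, 0.0327, 1.54e-09 and 0.0288). The C3 call at day 2 with VC was lost in 3 fits that left out 1 library, the C1s1 call in 7 and the Cd59a call in 5. Against day 0 without VC, the day 4 difference was 1.27 for C1s1 (adjusted p = 0.000648), while C3 at -0.23 and Cd59a at -0.22 were not called (adjusted p = 0.67 and 0.582). The fitted value of -4.12 for Cfb (adjusted p = 0.0423) rests on libraries with no count and depends on the prior count, so it is no estimate of size.

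Both lines started from different levels and each came from 1 mouse, so that genotype, sex and age cannot be told apart here.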

How the results depend on the processing

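For the single complement gene results that were called as reported or whose fold change is printed, 1800 values were recomputed, of which 1635 kept their direction and call, 128 lost a call, 16 gained one and 21 changed sign. Gains of other genes are not in this tally but in the counts of genes called. A minimum log2 change of 1 in either direction, added to the adjusted p, left 0 of the 8 genes called for 4F WT day 2, 2 for 4F WT day 2 + VC, 3 for 4F WT day 4 + VC, 0 for VC alone in 4F WT, 3 for the difference between the lines at day 4 + VC and 2 for DMH-1. Over all genes it left 486, 1544, 2807, 1519 and 2313 of 15832 called in the first 5 of these and 494 of 15164 for DMH-1. A fit of only the groups compared called 7 genes for 4F WT day 4, 7 for 4F WT day 2 + VC and 3 for the difference at day 4 + VC. No filter on low counts also called 3 for the latter, and all 24 libraries called 3 for DMH-1. With day 0 without VC as the baseline, 7 genes were called for 4F WT day 2 + VC and 4 for the difference at day 2 + VC. That baseline turned C1ra and C1s1 at day 4 + VC in 4F D/KO to 1.45 and 2.09, the C3 difference at day 2 + VC to 0.0247, and the C1ra and C1s1 differences at day 4 + VC to 0.84 and 1.27. Its construction, which adds the effect of VC at day 0, differs from that of the comparison reported.

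Leaving out each library in turn gave 1 to 3 genes called for 4F WT day 2, 1 to 2 and 2 to 5 for the difference between the lines at day 2 + VC and day 4 + VC, 4 to 7 for Vactosertib and 3 to 4 for DMH-1. At day 4 + VC in 4F D/KO, C1ra ranged from -0.18 to 0.20 and C1s1 from -0.18 to 0.11, and the difference between the lines from -0.63 to 0.0427 for C4b and from -0.027 to 0.18 for Serping1. Between Repsox and Vactosertib the ranges were -0.18 to 0.36 for C3, -0.0243 to 0.35 for C4b, -0.081 to 0.0573 for C1ra, -0.0452 to 0.17 for C1s1 and -0.15 to 0.21 for Cd59a. Apart from fits that left out a library, the criterion on fold change and losses given with the results, the following calls were lost. A fit of only the groups compared ended those of C3 and Cd55 with Repsox (adjusted p = 0.0756 and 0.0645), C1ra with DMH-1 (0.0536) and the differences of Cd59a and Cfb at day 4 + VC (0.0502 and 0.0982). All 24 libraries ended C3 and Cfb with Vactosertib (adjusted p = 0.0649 and 0.0521) and C1ra and C1s1 with DMH-1 (0.175 and 0.168). No filter ended Cd55 with Vactosertib and A83-01 (adjusted p = 0.143 and 0.0682) and the differences of Cd59a and Cfb at day 4 + VC (0.0589 and 0.0895). C1s1 with DMH-1 was also lost with DESeq2 size factors and with at least 10 counts in every library (adjusted p = 0.0557 and 0.0536). The baseline without VC ended C4b and Cfb at day 2 + VC in 4F D/KO (adjusted p = 0.2 and 0.158) and the Cfb difference at day 4 + VC (0.0963). Except where the setting itself changes the comparison, the cause was not tested.

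Over all genes, a fit of only the groups compared called 6400 genes in place of 3880 for 4F WT day 4, 2523 in place of 4140 for VC alone in 4F D/KO, 2256 in place of 3820 for Repsox and 2591 in place of 5348 for skin against tail tip. The added criterion on fold change moved the share of higher calls for the difference at day 2 from 52.4% to 65.7%. No paired analysis was possible because the labels number all libraries in one running series and no replicate number is shared between groups. Depth limits what can be said of Cfb and Cfd, since 3 counts in 1 library equal 0.098 to 0.181 CPM.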
